A study of Mus musculus with 10 samples.

Results

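The genes described here are the nuclear tRNA genes of the mouse that lie outside the large cluster on chromosome 13. They were taken from RefSeq (GRCm38/mm10) as all genes of biotype tRNA on chromosomes 1 to 19, leaving out those on chromosome 13 between 20 and 24 Mb. The rule selected 287 of 391 tRNA genes, and the other 104 were in that cluster. Of the 287, 282 had a place on an assembled chromosome and were analysed, and the 5 others (Trnat-ugu, Trnap-ugg, Trnav-aac, Trnal-aag and Trnav-cac) were listed without one. A gene was counted as occupied when a listed region overlapped it or its 200 bp flanks.

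The regions come from chromatin immunoprecipitation followed by sequencing (ChIP-seq) of primary cortical neurons of the C57BL/6J strain, cultured for 6 days. All cultures spent a night in 3% serum. One group was left untreated and the other received 50 mM KCl for 45 min, which depolarizes the membrane. Antibodies against Rpc155, Gtf3c1, H3K27ac and H3K4me1 gave 1 peak list per antibody and condition, 8 in all, so every difference between conditions below is a difference between 2 lists with no replicate check and no p-value. Fold enrichment is the authors' ratio of the ChIP signal at the summit of a region over background. The lists give no read counts, so depth is unknown.

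Transfer RNAs carry amino acids to the ribosome and are transcribed by RNA polymerase III. The promoter of a tRNA gene lies inside the gene, in an A box and a B box. The factor TFIIIC binds these boxes and brings in TFIIIB, which recruits the polymerase, and a run of T bases ends transcription. Gtf3c1 is the largest TFIIIC subunit, Rpc155 is the catalytic subunit of RNA polymerase III, H3K27ac marks active promoters and enhancers, and H3K4me1 marks enhancers and the edges of promoters. In a gene symbol such as n-TRtcg5, the capital letter after n-T is the amino acid, here arginine, and the lower case letters are the anticodon.

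The sequences of a few genes show these elements. RefSeq promoter windows of other genes (GRCm38.p6, from 250 bp before to 50 bp after a start site) held all or part of 8 of the members. Both strands were searched for the B box core GTTCGANNC and the A box core TGGCNNA. Each gene below is written 5′ to 3′ on the strand that carries the B box core, with the box cores and the first run of TTTT or more past the gene in capitals, where the window reaches it. The first 3 genes had Rpc155 in both lists, and n-THgtg7, a histidine gene, had no region in any list.
n-TRtcg5, arginine, whole gene, chr7:79466419-79466491: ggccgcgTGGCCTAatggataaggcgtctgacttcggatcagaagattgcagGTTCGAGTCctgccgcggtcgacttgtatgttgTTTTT
n-TTagt9, threonine, whole gene, chr7:35234770-35234843: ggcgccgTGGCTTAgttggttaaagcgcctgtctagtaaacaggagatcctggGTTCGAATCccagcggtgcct
n-TLaag4, leucine, its last 71 of 82 bases: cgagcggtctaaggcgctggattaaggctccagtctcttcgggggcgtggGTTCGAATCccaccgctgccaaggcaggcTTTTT
n-THgtg7, histidine, its first 62 of 72 bases: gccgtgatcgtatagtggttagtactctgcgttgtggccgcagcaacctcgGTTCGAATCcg

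The B box core stood at base 53 of n-TRtcg5 and base 54 of n-TTagt9, and the A box core at base 8 of both. The T run began 13 bases past n-TRtcg5 and 9 bases past n-TLaag4, and was 5 bases long at both. The unoccupied n-THgtg7 held the B box core as well, at base 52 of the stretch shown. Among all 32851 promoter windows, 0.843% held the B box core on either strand, 45% the A box core and 78% a TTTT run. A match is a description of the letters and not of binding.

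The next sequence shows how close a tRNA gene and a protein-coding gene can lie. It is the promoter window of Polr3e, which encodes another subunit of RNA polymerase III, on the plus strand (chr7:120917528-120917827), with the bases of n-TLaag4 in capitals. The start site of Polr3e was 180 bp from n-TLaag4.
Polr3e promoter: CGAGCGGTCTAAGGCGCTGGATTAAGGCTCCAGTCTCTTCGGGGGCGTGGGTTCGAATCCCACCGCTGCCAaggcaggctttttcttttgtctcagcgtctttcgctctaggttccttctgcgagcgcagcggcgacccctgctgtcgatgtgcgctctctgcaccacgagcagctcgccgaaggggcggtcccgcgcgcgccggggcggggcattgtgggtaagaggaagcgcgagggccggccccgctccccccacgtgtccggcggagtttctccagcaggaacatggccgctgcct

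The fold enrichment of Rpc155 at n-TLaag4 was 25.6 without KCl and 15.9 with it. Gtf3c1 was at 6.27 and 5.38, and H3K27ac was listed with KCl alone, at 9.32. The gene n-TRtcg5 lies within the annotated bounds of Polg, the gene of the mitochondrial DNA polymerase. It is 146 bp upstream of the start site that the promoter window is built on. Its Rpc155 fold enrichment was 50.8 and 46.7 and its Gtf3c1 fold enrichment 16.3 and 15.4, and H3K27ac was again listed with KCl alone, at 7.97. At n-TTagt9, Rpc155 was 49.4 and 39.5, Gtf3c1 9.31 and 19.9, and H3K27ac 7.75 and 7.29. All 3 genes thus had both factors in both lists, with H3K27ac in the KCl list.

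The first question was how many of the 282 genes were occupied. Without KCl, Rpc155 was listed at 169 of them (59.9%, exact binomial 95% interval 54 to 65.7, counting error only) and with it at 157 (55.7%, 49.7 to 61.6). Of 3336 snRNA, snoRNA and miRNA genes, counted in the same way, 2.16% had Rpc155 without KCl and 1.17% with it. Gtf3c1 was listed at 151 and 149 tRNA genes (53.5% and 52.8%), against 10.3% and 10.9% of the other short RNA genes. H3K27ac was listed at 129 and 142 (45.7% and 50.4%), against 9.47% and 11.6%. With the summit required inside the gene or its flanks it was at 28 and 18, the other order of the conditions. H3K4me1 was listed at 76 and 99 (27% and 35.1%), against 16.8% and 17.8%. All 4 antibodies thus had a higher share at tRNA genes than at other short RNA genes, with the widest ratio for Rpc155. Over all 46323 other genes, which are longer (median 6444 bp against 72 bp for the tRNA genes and 106 bp for the short RNA genes), Rpc155 had shares of 16.6% and 6.44% without and with KCl. Gtf3c1 had 35.5% and 33.6% there, H3K27ac 37.4% and 39.4%, and H3K4me1 54.4% and 54.6%, the last above the shares at tRNA genes. Genes that lie close together share regions: the 169 untreated genes with Rpc155 fell in 117 distinct regions, 31 of which held 2 or more genes.

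Regions at tRNA genes had a higher median fold enrichment than regions elsewhere for all 4 antibodies, and ranked among the highest of the Rpc155 lists. The medians at the genes use the highest region per gene and count a shared region once per gene, while those elsewhere count each region once. The median Rpc155 fold enrichment at occupied tRNA genes was 50.2 in untreated neurons (range 2.77 to 62.3) and 46.7 with KCl (3.27 to 64.7), while the regions elsewhere had medians of 3.57 and 3.63. Of the 100 Rpc155 regions with the highest fold enrichment, 67 without KCl and 62 with it lay at these genes. For Gtf3c1 the medians were 11.6 and 13.1, against 3.58 and 3.52 elsewhere, and 1 of the 100 highest regions in each list lay at a tRNA gene outside the cluster. H3K27ac had medians of 6.86 and 9.91, against 3.17 and 3.24 elsewhere, and H3K4me1 of 5.33 and 5.83, against 4.16 and 4.24.

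The genes fell into 3 levels of Rpc155 in untreated neurons. A fold enrichment of 20, chosen after the values were seen, separated 143 genes at 23.4 or more (median 51.6) from 26 genes between 2.77 and 19.9, and 113 genes had no Rpc155 region. The 143 high genes all had Rpc155 with KCl too, at 13.6 to 64.7. Gtf3c1 was listed at 140 of them without and 142 with KCl, and H3K27ac at 126 and 135. Of the 26 low genes, 14 had Rpc155 with KCl, 7 and 6 had Gtf3c1, and 3 and 6 had H3K27ac. Of the 113 genes without Rpc155, 4 and 1 had Gtf3c1 and 0 and 1 had H3K27ac. Rpc155, Gtf3c1 and H3K27ac therefore occurred largely on the same genes: 127 genes had all 3 in both conditions, and 106 had no region in any of the 8 lists.

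Some genes departed from this grouping. Gtf3c1 without Rpc155 in either condition was found at 4 genes, n-TQttg2, n-TLcag7, n-TGtcc1 and n-TEctc5. Their Gtf3c1 fold enrichment was between 2.85 and 3.95. The reverse, Rpc155 in both lists without Gtf3c1 in either, was found at 7 genes. These were n-TKctt15 (Rpc155 15.1 untreated and 9.39 with KCl), n-TGccc6 (10.6 and 9.38), n-TIaat6 (9.73 and 5.28), n-TWcca8 (8.42 and 9.88), n-TNgtt10 (8.34 and 8.90), n-TPagg6 (6.27 and 3.27) and n-TKctt18 (5.44 and 4.90). All 7 were among the low Rpc155 genes. Across the genes with both factors, the fold enrichment of Rpc155 and Gtf3c1 had a Spearman correlation of 0.62 in untreated neurons (147 genes) and 0.74 with KCl (148 genes). The correlation of Rpc155 with H3K27ac was 0.12 (129 genes) and 0.10 (141 genes). These describe genes of the same lists, many of which share a region.

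By isotype, the genes covered all 20 amino acids and 46 anticodons. The plot of Rpc155 levels by amino acid shows full coverage of arginine, with 15 of 15 genes occupied in both lists, phenylalanine with 5 of 5 and tyrosine with 4 of 4. Proline had 13 of 14 and threonine 9 of 10 in both lists. At 21 anticodons every gene had Rpc155 in both lists. At 2 anticodons, each with 1 gene in the set, no gene had it: n-THatg1 (histidine) and n-TSgga1 (serine). The genes that alone represent their anticodon and were occupied were n-TStga3 (Rpc155 35.7 and 41.0), n-TGacc1 (28.5 and 24.3) and n-TLcaa3 (62.3 and 58.3). Glycine had 18 and 14 of 26, lysine 13 and 11 of 21, and glutamine 6 and 3 of 8.

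**Figure D1:**
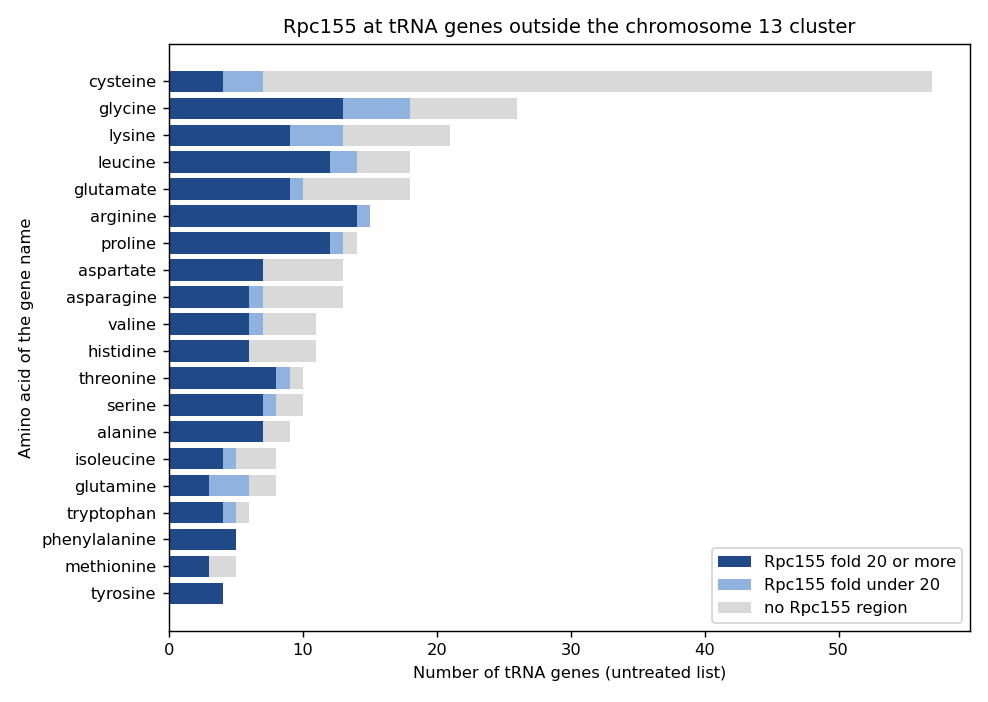
Number of tRNA genes by the amino acid of the gene name (bars, total length is the number of genes) and by Rpc155 fold enrichment in the untreated list. Arginine, phenylalanine and tyrosine genes were all occupied, while 50 of 57 cysteine genes had no Rpc155 region.

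Cysteine stood apart. It had the most genes, 57, of which 7 had Rpc155 in untreated neurons and 6 with KCl. Of these genes, 49 lie in an array on chromosome 6 (chr6:47978997-48363603), and 48 of the 49 had no Rpc155 in either list. The one that had it, n-TCgca57, had a fold enrichment of 19.9 and 16.3. The array had no H3K27ac region at any of its genes, and Gtf3c1 at 0 and 1. Outside chromosome 6, 6 of 8 cysteine genes had Rpc155 in untreated neurons and 5 with KCl, among them n-TCgca56 (48.9 and 47.9) and n-TCgca51 (50.6 and 36.6). Without cysteine, 162 and 151 of 225 genes were occupied. The array thus held 48 of the 113 unoccupied genes. Whether their copies can be told apart by the reads was not tested.

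Some tRNA genes carry an intron, which must be spliced from the transcript, and are longer for it: those of tyrosine, and of some leucine, isoleucine and arginine isoacceptors. The 10 genes of 85 bp or more belonged to these 4 amino acids, and all 10 had Rpc155, Gtf3c1 and H3K27ac in both conditions. The longest was n-TLcaa3, at 107 bp. Of the 272 shorter genes, 159 and 147 had Rpc155. The shorter genes include the 49 of the cysteine array, 48 of them without Rpc155 in either list. They also include 15 genes of repeated units on chromosome 1, described below, 11 of them without it. The 4 tyrosine genes, n-TYgta1, n-TYgta2, n-TYgta9 and n-TYgta10, had Rpc155 fold enrichments from 51.6 to 55.2 in untreated neurons and from 46.0 to 56.5 with KCl. The long arginine gene n-TRtct2 was lower, at 5.60 and 7.44, although its H3K27ac of 11.2 and 12.97 was above the median of the occupied genes in both lists.

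The arginine gene n-TRtct5 encodes a tRNA known to be abundant in the nervous system, and C57BL/6J mice are known to carry a variant that impairs its processing. It lies on chromosome 1 (173390329 to 173390402) within the annotated gene Aim2. Rpc155 was 46.2 in untreated neurons and 42.3 with KCl, Gtf3c1 13.6 and 11.5, H3K27ac 8.32 and 10.9, and H3K4me1 6.48 and 10.4. The KCl list had 2 H3K4me1 regions there, and the higher was taken. It lies on the other side of the gene from the untreated region, so these values do not compare the same site. The gene n-TRtct5 is 1 of 44 genes with a region in all 8 lists. The other arginine genes with this anticodon were n-TRtct1 (52.5 and 54.7), n-TRtct4 (50.2 and 59.9) and n-TRtct2, given above. Occupancy of the gene does not measure the mature tRNA.

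The location of a gene went with its occupancy. Of the genes that lie between other genes and within 1 kb of an end of a protein-coding gene, 35 of 36 had Rpc155 in untreated neurons and 34 with KCl. At 1 to 10 kb the counts were 51 and 50 of 61, and farther away 46 and 38 of 73. Of the genes that lie inside another annotated gene, 37 and 35 of 112 were occupied. Of these 112, 48 belong to the cysteine array on chromosome 6 and had no Rpc155, and without the cysteine genes of that chromosome, a choice made after seeing the data, the counts were 37 and 35 of 64. Inside protein-coding genes the distance to an end also separated the genes. Within 1 kb of an end 5 of 6 had Rpc155 in both lists, and farther inside 8 and 7 of 26. Unoccupied genes deep inside protein-coding genes included those in Cdh19, Naaladl2, Sgcz, Robo2, Oprd1, Ubr4 and Myh8.

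A few neighbours, chosen after the values were seen, illustrate the occupied genes. The pair n-TWcca2 (inside Tmpo) and n-TDgtc16 (345 bp from it) had Rpc155 of 59.6 and 48.7, and n-TGccc4, 240 bp from Tia1, had 58.8 and 57.4. The gene n-TRacg6, 226 bp from the arginine methyltransferase gene Prmt5, had 49.1 and 54.9. At Per1, a circadian clock gene that activity also induces, n-TTagt5 and n-TScga3 were among the low genes, with 15.0 and 16.2 each. Next to Hes7, n-TRtct4, n-TLtag3, n-TQctg6 and n-TKctt27 shared Rpc155 of 50.2 and 59.9. The highest Gtf3c1 fold enrichment at the members, 26.0 untreated and 38.2 with KCl, was in a region shared by n-TRtct4, n-TLtag3 and n-TQctg6. Chromosome 11 held 47 members, and 41 had Rpc155 in both lists, including the highest in each: n-TEctc10 and n-TLcaa3 at 62.3 and 58.3, and n-TPcgg3, n-TDgtc9, n-TGtcc6 and n-TWcca7 at 62.1 and 64.7.

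H3K27ac was also found at genes far from any protein-coding gene. Among the high Rpc155 genes more than 10 kb from any protein-coding end, 31 of 35 had H3K27ac in untreated neurons and 32 with KCl. Within 1 kb the counts were 28 and 31 of 32. H3K4me1 was listed at 14 and 22 of the 35 and at 16 and 19 of the 32. Of the 143 high genes, 79 had H3K27ac without H3K4me1 in untreated neurons and 47 had both. With KCl 62 had H3K27ac alone and 73 had both. Only 8 had no H3K27ac in either list, among them n-TGacc1, n-TMcat11 (Rpc155 43.9 and 52.7) and n-TPtgg7 (30.2 and 14.3).

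A tandem array on chromosome 1 (chr1:171033942-171111515) held 25 genes of mixed isotype and both extremes of occupancy. In its middle, 3 repeated units of 5 genes each, spaced 7628 and 7614 bp apart, had Rpc155 at 4 of 15 genes in untreated neurons, at 2.77 to 7.21, and at 0 with KCl. H3K27ac was listed at 0 of the 15 in both lists, and Gtf3c1 at 5 and 0. The 10 genes on either side of the units all had Rpc155 in both lists, at 39.8 to 59.4 untreated and 24.7 to 60.1 with KCl, and all 10 had Gtf3c1 and H3K27ac. The plot of Rpc155 along this array shows the step at both borders. In a second array of 25 genes, on chromosome 3 (chr3:96322074-96501518), 12 and 9 had Rpc155. The sequences of these units were not compared, and how reads from near-identical copies were placed was not tested.

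**Figure D2:**
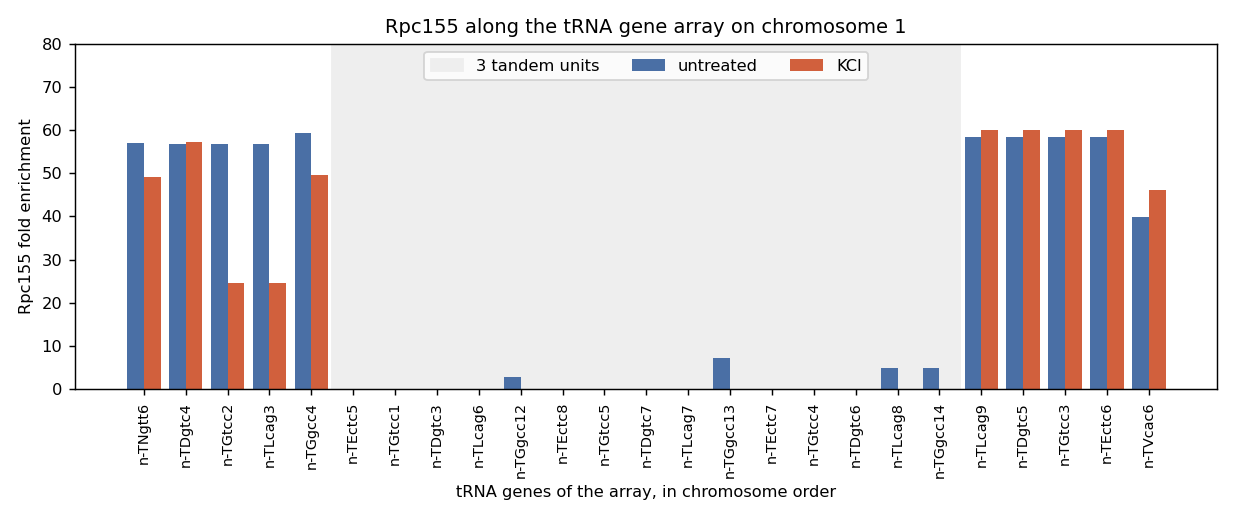
Rpc155 fold enrichment (bars) in the untreated and KCl lists at the 25 tRNA genes of the chromosome 1 array, in chromosome order; no bar means no region. The 15 genes of the shaded tandem units lie at 7.21 or below, and the 10 others at 24.7 or above.

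The second question was what differed after 45 min of KCl. Presence of Rpc155 differed in 1 direction: 157 genes had it in both lists, 12 in the untreated list alone and 0 in the KCl list alone. The 12 had low fold enrichments, from 2.77 to 8.49, and included n-TCgca47 (8.49), n-TGgcc13 (7.21), n-TQctg4 (6.45), n-TKctt13 (6.12) and n-TKctt12 (6.11). Of the 12, 4 lie in the tandem units on chromosome 1, and n-TQctg4, n-TVcac10 and n-TQctg3 lie in the chromosome 3 array. How reads were placed in these arrays was not tested. The Rpc155 lists also differ in length, 12511 regions without KCl against 4233 with it. With the untreated list cut to the length of the KCl list, 167 genes remained occupied in it. Of the other short RNA genes, 1.41% had Rpc155 in the untreated list alone and 0.42% in the KCl list alone, and of all other genes 5557 and 863 of 46323.

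Gtf3c1 was in both lists at 144 genes, in the untreated list alone at 7 and in the KCl list alone at 5, against 2.64% and 3.15% of the short RNA genes. H3K27ac was in both at 129 genes, in the untreated list alone at 0 and in the KCl list alone at 13, against 0.839% and 2.94%. H3K4me1 was in both at 70, untreated alone at 6 and KCl alone at 29, against 1.5% and 2.52%. Over all other genes, H3K27ac was in the untreated list alone at 884 and in the KCl list alone at 1813, and H3K4me1 at 841 and 937. For Gtf3c1 these counts were 2707 and 1816. More genes in the KCl list alone than in the untreated list alone was thus, for H3K27ac, a feature of genes at large as well. For H3K4me1 genes at large, which are longer, were near even, at 841 against 937, while the members were at 6 against 29. The short RNA genes, nearer in length, also had more in the KCl list alone, 84 against 50 of 3336. Members share regions as well: the 99 with H3K4me1 in the KCl list fell in 80 distinct regions.

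At genes with a region in both lists the fold enrichments could be set side by side. The highest region at the gene was taken in each list. These regions need not overlap each other, and a shared region counts once per gene. The pairs over all regions given beside them are overlapping regions, each pair counted once. The ratio of KCl to untreated had a median of 0.936 for Rpc155 (range 0.435 to 1.70) and was above 1 at 60 of 157 genes. It was 1.5 or more at 2 genes and the inverse or less at 21. Over all 2214 pairs of overlapping Rpc155 regions, 10.7% were at least 1.5 times higher with KCl and 6.14% at least 1.5 times lower, with a median ratio of 1.00. Among pairs with an untreated fold of at least 20, a threshold added after seeing the data, the median was 0.936 at 143 members. It was 0.912 at 31 pairs elsewhere and 1.02 at 52 pairs of the chromosome 13 cluster. The threshold acts on the untreated value, the denominator of the ratio, so it can by itself lower these medians.

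The lowest Rpc155 ratios were at n-TGtcc2 and n-TLcag3, at 56.7 in untreated neurons and 24.7 with KCl. Their untreated region also held n-TDgtc4, which had a separate region at 57.2 with KCl. The 56.7 is the value of the whole untreated region, so whether the signal at n-TGtcc2 and n-TLcag3 fell was not tested. At n-TPtgg7 the values were 30.2 and 14.3, at n-TTcgt3 50.1 and 25.6, and at n-TPagg6 6.27 and 3.27. The highest ratios were at n-TFgaa3 and n-TNgtt7, next to the respiratory complex I gene Ndufs7, where a shared region was at 34.1 in untreated neurons and 57.9 with KCl. Gtf3c1 there was at 10.0 and 20.6. At n-TPagg2 and n-TPcgg2 Rpc155 was 37.7 and 52.5. Across 143 genes the Rpc155 and Gtf3c1 ratios had a Spearman correlation of 0.65. Genes with a higher Rpc155 ratio tended to have a higher Gtf3c1 ratio. Genes that share regions repeat the same values here. The 157 Rpc155 ratios come from 110 distinct pairs of regions and the 144 Gtf3c1 ratios from 104.

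For Gtf3c1 the median ratio was 1.20 (range 0.415 to 3.21), and it was above 1 at 107 of 144 genes. The lowest ratio was at n-TLcag3, whose untreated region, at 11.5, was shared with n-TGtcc2. With KCl n-TLcag3 had a separate region, at 4.76. The ratio was 1.5 or more at 18 genes and the inverse or less at 2. Over all 31778 pairs of Gtf3c1 regions these shares were 12.3% and 13.7%, and the median 1.00. The stronger Gtf3c1 regions elsewhere had a median below 1. Pairs with an untreated fold of at least 6, a threshold again set after seeing the data, had a median of 1.19 at 132 members. The median was 1.19 at 42 pairs of the chromosome 13 cluster and 0.722 at 6599 other pairs. The threshold acts on the denominator of the ratio. It kept 132 of 144 members but a smaller part of the pairs elsewhere, which can by itself put the median of those pairs below 1.

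H3K27ac had the largest median ratio of the 4 antibodies, 1.44 (range 0.685 to 3.44), and was higher with KCl at 120 of 129 genes. It was 1.5 or more at 53 genes and the inverse or less at 0. The 129 ratios come from 83 distinct pairs of regions. Each value is that of a whole region, and the summit lay in the gene or its flanks at only 28 and 18 genes. At n-TNgtt12 the values were 3.05 and 9.53. Its KCl region also held n-TKctt16, n-THgtg8, n-TGtcc7 and n-TEctc13, which had a separate untreated region at 6.86. Whether the signal at the genes themselves rose was not tested. Of all 44318 pairs of H3K27ac regions, 19.4% were at least 1.5 times higher with KCl and 9.56% at least 1.5 times lower, with a median ratio of 1.06. Among pairs with an untreated fold of at least 6 the median was 1.39 at 90 members and 1.19 at 9262 other pairs. This threshold, used for H3K4me1 below as well, acts on the denominator of the ratio and can by itself lower these medians. For H3K4me1 the median ratio was 1.15 over 70 genes, with 10 at 1.5 or more and 3 at the inverse or less. Among those with an untreated fold of at least 6 the median was 1.01 over 25 members, with 1 up and 1 down by 1.5 times, and 0.966 over 53419 other pairs. Over all 165899 pairs these shares were 12.9% and 8.86%, and the median 1.04. Fold enrichments were not adjusted between libraries, so a ratio can hold a difference between libraries, and its part in these values was not tested.

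**Figure D3:**
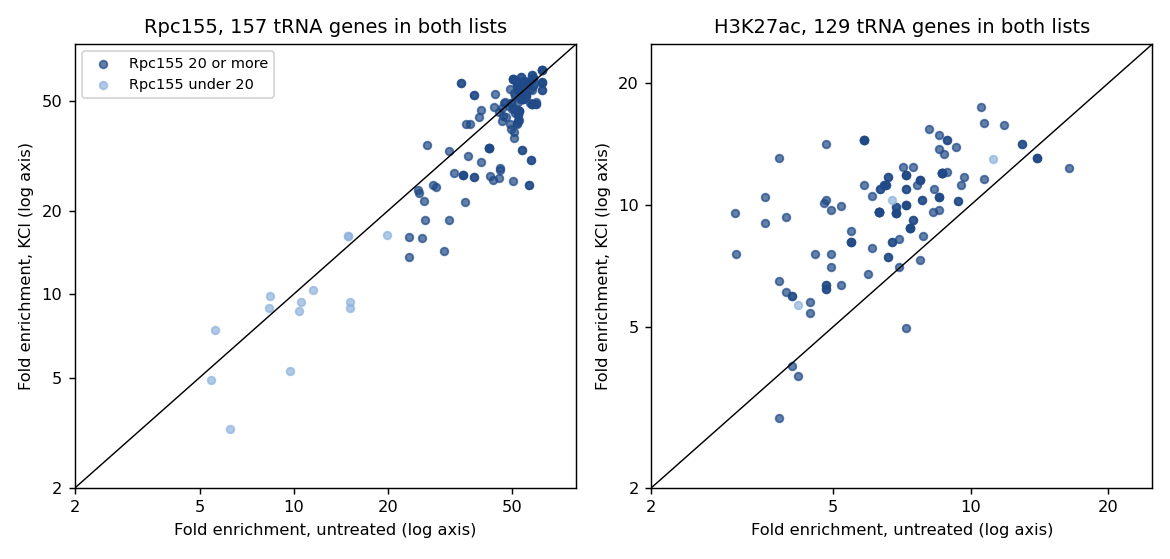
Fold enrichment in the untreated (x) and KCl (y) lists, both on log axes, for Rpc155 (157 tRNA genes) and H3K27ac (129 tRNA genes); each point is a gene, coloured by its untreated Rpc155 fold enrichment, and the line marks equal values. Rpc155 points scatter around the line with more below it, while 120 of 129 H3K27ac points lie above it.

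**Figure D4:**
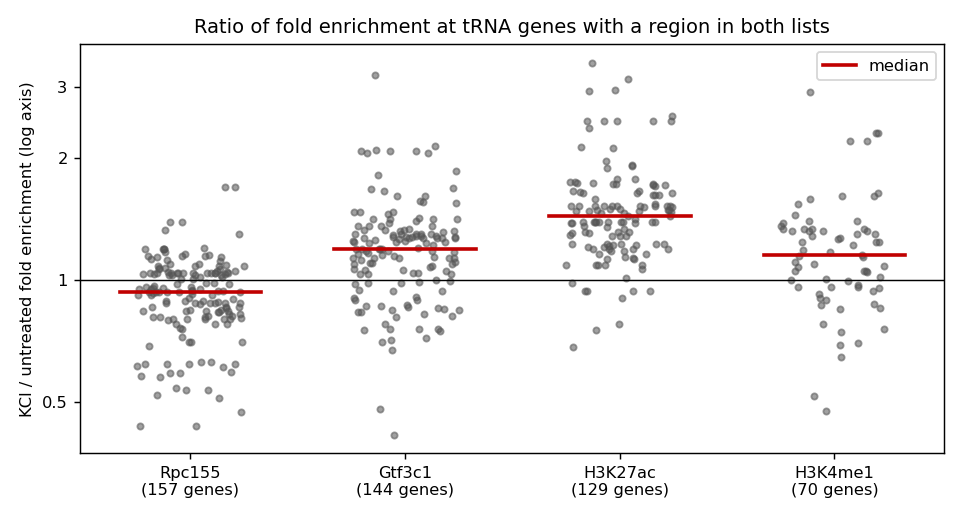
Ratio of KCl to untreated fold enrichment on a log axis for each antibody; each point is a tRNA gene with a region in both lists and red bars are medians. The medians are 0.936 for Rpc155, 1.20 for Gtf3c1, 1.44 for H3K27ac and 1.15 for H3K4me1.

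H3K27ac appeared with KCl alone at 13 genes. Besides n-TLaag4 and n-TRtcg5, they included n-TVcac7 near Trim41 (H3K27ac 10.0, Rpc155 55.2 and 58.7), n-TPtgg4 and n-TVaac7 (8.10, in a shared region), n-TTagt5 near Per1 (5.67), n-TTcgt5 (3.88) and n-TEctc12 (3.51). At 12 of the 13 Rpc155 was already listed in untreated neurons. The exception was n-TAagc8, an alanine gene, with H3K27ac of 9.59 and no Rpc155 or Gtf3c1 in either list.

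The 4 antibodies differed in where their regions lay around the 143 high genes. The gene centre was inside an Rpc155 region at all 143 in both lists, and inside a Gtf3c1 region at 140 and 142. These genes were chosen by an untreated Rpc155 region at the gene or its flanks. Untreated Rpc155 coverage on the gene therefore follows largely from the choice and is not a result. The summit of H3K27ac lay inside the gene at 0 of the 143 in either list, and at a median of 439 and 528 bp from the gene centre. H3K27ac covered 49.7% of gene centres in untreated neurons and 71.3% of positions 300 bp away. With KCl it covered 73.4% of gene centres, and its highest share was again 300 bp away. H3K4me1 coverage was highest farther out, with 13.3% of gene centres and 45.5% of positions 1400 bp away in untreated neurons, and 25.2% and 52.1% at 1200 bp with KCl. At the 66 high genes with no other member within 1 kb its highest coverage was at 800 bp (47.0%) and 1100 bp (51.5%). Where an H3K4me1 region reached the gene or its flanks, its summit lay a median of 427 and 463 bp from the gene centre, no farther than that of H3K27ac. An H3K4me1 region lay within 2 kb of 141 and 140 of the 143 genes. The H3K4me1 lists are long, at 189576 and 190732 regions. The share of other genes with a region within 2 kb was not counted, so these counts have no background. The plot of coverage by distance shows Rpc155 and Gtf3c1 highest on the gene, and both marks lower on the gene than beside it.

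**Figure D5:**
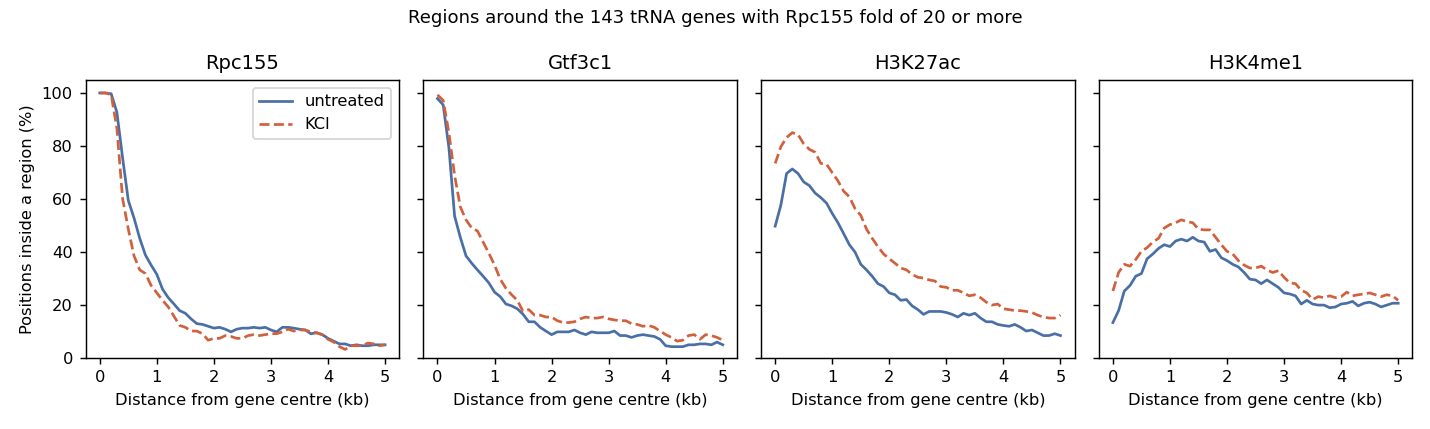
Share of positions inside a listed region (y, percent) by distance from the gene centre (x, kb, both sides averaged) for the 143 tRNA genes with Rpc155 of 20 or more, 1 panel per antibody. Rpc155 and Gtf3c1 peak on the gene, H3K27ac at 300 bp and H3K4me1 beyond 1 kb, and the H3K27ac line for KCl lies above the untreated one. The genes were chosen by their untreated Rpc155 region, so its peak on the gene follows largely from the choice.

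H3K27ac regions at these genes were also wider with KCl. At the 126 high genes with H3K27ac in both lists the median width was 1696 bp in untreated neurons and 3086 bp with KCl, and 109 were wider with KCl. These medians count a shared region once per gene. With each region taken at any member counted once, the medians were 1567 and 2562 bp, against 665 and 707 bp over all H3K27ac regions. Counted in that way, Rpc155 regions were at 953 and 826.5 bp and Gtf3c1 regions at 718 and 977 bp. The next values are again per gene. Rpc155 regions at the 143 high genes were narrower with KCl, at 1498 and 1181 bp, with 43 wider, and Gtf3c1 regions were wider at 104 of 139 genes, at 936 and 1295 bp. Width follows how much of the signal passes the peak caller's threshold, so it is not independent of fold enrichment.

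Other genes transcribed by RNA polymerase III had values in the same range. Of 10 such genes, 9 had Rpc155 in both lists, at 17.5 to 58.2 untreated and 16.7 to 60.5 with KCl. Rmrp, the RNA of RNase MRP, had 58.2 and 60.5, Rn7sk, an inhibitor of transcription elongation, 47.7 and 32.9, and Bc1, a neuronal RNA of dendrites, 17.5 and 16.7. The 104 genes of the chromosome 13 cluster had Rpc155 at 96 and 94 and Gtf3c1 at 72 and 75. Their H3K27ac counts were 29 and 62 and their H3K4me1 counts 52 and 54. The difference between these groups of genes was not tested.

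A list of protein-coding genes, most of them of tRNA maturation, was counted within 1 kb of a gene end. It held the La protein gene Ssb, the RNase Z gene Elac2 and the splicing ligase gene Rtcb. The transcription genes Maf1 and Brf1 were on it as well. Of the 34 genes counted, H3K27ac was listed at 33 in both lists, against 53.9% and 58.5% of all protein-coding genes. Rpc155 was listed at 14 and 3, against 22.6% and 8.65%, and Gtf3c1 at 25 and 30, against 46.7% and 48%. Rpc155 at these genes was low, as at Maf1, a repressor of RNA polymerase III (4.92 in untreated neurons alone), and at Brf1, a TFIIIB subunit (4.75, untreated alone). At Rtcb it was 2.81 and 3.46.

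Markers of cell types were checked through H3K27ac within 1 kb of a gene end. All 12 neuronal markers had it in both lists, as did 3 and 2 of 5 astrocyte markers, 1 of 4 oligodendrocyte markers in both, 0 of 5 microglial markers in both, 0 and 1 of 4 endothelial markers, and 0 of 4 non-neural markers in both. Fewer cells of a type and less signal per cell cannot be told apart in these bulk cultures.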

How the data were processed

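The 8 peak lists, 1 per antibody and condition, were analysed, and the 2 input samples were not analysed here. The submitters' processing notes name Bowtie2, MACS2 and the build GRCm38/mm10, without versions. The series design states 3 biological replicates per condition and total input as control; whether they were pooled is not stated. Each deposited list gives a fold enrichment (a ratio), a −log10 p, a −log10 q and a score per region, all made by the authors' peak caller. The values are the authors', and fold enrichment was used to describe and rank regions and set side by side between conditions without adjustment between libraries.

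Genes came from a RefSeq table (GRCm38.p6). A region was assigned to a gene at an overlap with the gene or its 200 bp flanks, and the highest fold enrichment was taken where several overlapped. The 5 entries left out carried scaffold coordinates. The share of genes has an exact binomial (Clopper-Pearson) 95% interval. No test between conditions was possible with 1 list each. Named genes were those with the 10 highest Rpc155 values per list, Rpc155 in 1 list alone, the 5 highest and lowest Rpc155 ratios, only one of Gtf3c1 and Rpc155, H3K27ac with KCl alone, a single gene per anticodon, and n-TRtct5. Other genes named as examples of a location, neighbour, array or length were chosen after their values were seen. The members and lists were chosen with earlier results of these data known. Overlap code was tested on simulated data. Python 3.11.15, pandas 2.3.3, numpy 2.4.6 and scipy 1.17.1 were used.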

Additional observations from a re-analysis of the deposited data

How the results depend on the processing

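Counts were repeated with a q of 1e-05 or lower, a fold enrichment of at least 6, equal list lengths, the gene body without flanks, and the summit inside the gene or its flanks. Ratios were repeated with each region pair counted once and divided by the median over all pairs. Of these 48 values, 38 stayed within 1.5 times the count, or within the interval of the median ratio, and 10 moved. The 8 alternative ratios kept their direction. The order of the conditions changed for some counts: with the summit required, H3K27ac was at fewer genes with KCl (18) than without (28), and Gtf3c1 was at more genes with KCl (134 against 132 with a fold of at least 6, 148 against 145 with a q of 1e-05 or lower, 148 against 147 with the gene body alone). With the gene body alone, H3K27ac was at 76 genes in the untreated list and H3K4me1 at 34 and 55. With the summit required inside the flanks, H3K4me1 was at 17 and 27 genes. With a fold enrichment of at least 6, H3K4me1 was at 25 and 49. Divided by the median over all pairs, the H3K27ac ratio was 1.35. The Rpc155 and Gtf3c1 counts stayed within 1.5 times under these settings. No paired analysis was possible because each antibody and condition has 1 list and no result comes from a test. Read depth is unknown, so it cannot be said what depth limits.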
